A study of Homo sapiens with 6 samples.

Results

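The genes described here are 10 members of the Notch pathway measured by RNA sequencing in HEK293T cells, a human embryonic kidney line. They are the receptors NOTCH1, NOTCH2 and NOTCH3, the ligands JAG1, JAG2, DLL1 and DLL3, and the target genes HES1, HES4 and HEY1. The members were taken by name, and all 10 were found among the 63140 genes of the count table and among the 17427 genes with enough reads to test. The cells received either a miR-34a duplex or the AllStars negative control from Qiagen, and RNA was taken 18 h later (n = 3 libraries per group). The control appears as an siRNA in the sample labels and as a miRNA in the design text. The labels describe the libraries of a group as biological replicates without saying whether separate cultures were used, so the p-values measure the spread between these libraries. Libraries held 24728662 to 36650331 counts. In miR-34a replicate 2 the level of SIRT1, a known miR-34a target looked at after its values were seen, was 428 CPM (counts per 1000000, scaled by library), against 49.7 to 92.4 CPM in the other 5 libraries; the receptors and DLL1 kept their calls, given below, without that library. All 9 genes chosen as markers of HEK293 lines were above 1 CPM in every library, with summed levels of 586 to 644 CPM in the control and 518 to 549 CPM with miR-34a. Of the endothelial markers TEK had no count, of the blood markers CD3E had none, and of the fibroblast markers COL1A2 and DCN had none.

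Notch receptors are single-pass membrane proteins whose outer part is a chain of EGF-like repeats. A Jagged or Delta-like ligand on a neighbouring cell binds these repeats, ADAM proteases and then gamma-secretase cut the receptor, and the freed intracellular part enters the nucleus. There it joins the DNA-binding protein RBPJ and a Mastermind co-activator and switches on target genes, chief among them the HES and HEY repressors. A microRNA such as miR-34a guides an Argonaute protein to mRNAs that pair with its seed, the bases near its 5′ end, and the paired mRNAs are translated less and decay faster. NOTCH1, NOTCH2, JAG1 and DLL1 have been studied as miR-34a targets.

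The sequences of the guide strand and of matches to it in the 3′ untranslated regions (UTRs) of the receptors and ligands are shown first, since the changes below are set beside them. In the microRNA, from RefSeq on GRCh38.p14, capitals mark the seed, bases 2 to 8. In the mRNA sites, from GENCODE release 29 on GRCh38, capitals mark the bases of the seed match, and each 30-base window ends opposite base 1 of the microRNA, so the pairing runs antiparallel.
hsa-miR-34a-5p: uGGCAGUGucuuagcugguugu
NOTCH1 site 1: gtacttttattttacacagaaaCACTGCCt
NOTCH1 site 2: cctacccttttctggggaaagaCACTGCCt
NOTCH2: gtttcagtgatgaggaggacaaCACTGCCt
NOTCH3: atagccttgctggggaagggccCACTGCCA
JAG1: tgtttagatttgccatagagtaCACTGCCt
DLL1 site 1: gtcgcggcccggccgcctgcggCACTGCCt
DLL1 site 2: tgaattacgcataagaagcatgCACTGCCt
DLL1 site 3: tttcttgaattagaaacacaaaCACTGCCt
Only the NOTCH3 site, among those printed, carries the A opposite base 1 that makes an 8mer (CACTGCCA). The others are 7mer-m8 matches (CACTGCC).

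All of these sites lie in the last exon of their gene, on the minus strand of GRCh38. Those of NOTCH1 start 180 and 909 nt after the stop codon, in exon 34 (chromosome 9, 136495885 to 136495891 and 136495156 to 136495162). The NOTCH2 site starts 2466 nt after the stop codon, in exon 34 (chromosome 1, 119912834 to 119912840), and a 6mer (ACTGCC) lies 1044 nt after the stop. The NOTCH3 site starts 702 nt after the stop codon, in exon 33 (chromosome 19, 15159953 to 15159960). The JAG1 site shown starts 1302 nt after the stop codon, in exon 26 (chromosome 20, 10638190 to 10638196). The DLL1 sites start 197, 293 and 356 nt after the stop codon, in exon 11 (chromosome 6, 170282671 to 170282677, 170282575 to 170282581 and 170282512 to 170282518). HEY1 holds a 7mer-A1 match (ACTGCCA) 925 nt after its stop codon. JAG2, DLL3, HES1 and HES4 hold none of these matches in the 3′ UTR of the transcript searched, the one with the longest coding sequence.

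The surroundings of the 10 matches of 7 or 8 bases varied. The share of A and T in the 30 bases on each side ranged from 30% at DLL1 site 1 to 80.0% at NOTCH1 site 1, against a median of 50% over 3564 such sites in tested genes. NOTCH1 site 2 and the NOTCH3 site stood at 33.3%. None of the 10 windows held a match to bases 13 to 16 of miR-34a upstream of the seed match.

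With miR-34a, the 3 receptors and DLL1 fell, while JAG1, JAG2, DLL3 and the 3 target genes did not pass the test. A gene is called changed when its Benjamini-Hochberg adjusted p over all tested genes was under 0.05 in the quasi-likelihood test of edgeR. The members were chosen with earlier results of these data known, so the counts that follow are a description. Of the 10 members 4 fell, beside 6.7% of all tested genes called lower. In the same 4 members every miR-34a library lay below every control library, beside 14.2% of all tested genes. The median log2 fold change of the members was -0.29, and that of all tested genes was -0.004. None of the members rose in edgeR, beside 5.38% of all tested genes called higher, and the count was also 0 at an unadjusted p under 0.05, in DESeq2 and in limma-voom.

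**Figure D1:**
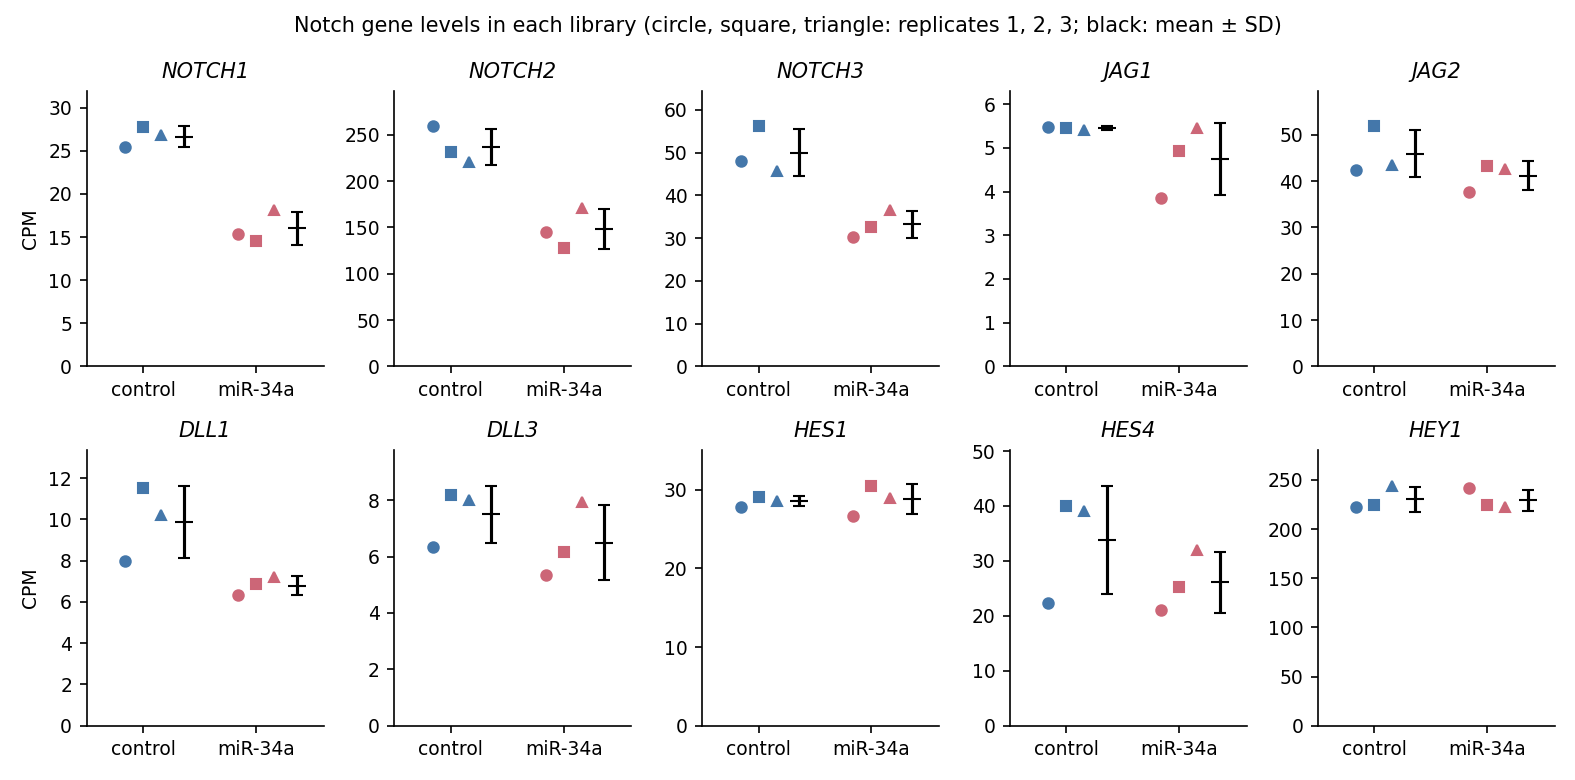
Level of each Notch gene (CPM, y axis from 0) in the control and miR-34a libraries. Each point is a library, its shape the replicate number, and the black bars are the mean ± SD of 3 libraries. The miR-34a points of NOTCH1, NOTCH2, NOTCH3 and DLL1 lie below all control points; those of the other 6 genes overlap with the control.

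NOTCH2, the most abundant of the receptors in these cells, stood at 259, 231 and 221 CPM in control replicates 1, 2 and 3. In the miR-34a replicates it stood at 145, 128 and 171 CPM. The highest miR-34a library was below the lowest control library. The level with miR-34a was 62.5% of the control (95% interval 55.3 to 70.6), or -0.68 on the log2 scale with an SE of 0.09 (edgeR adjusted p = 3.2e-06). NOTCH2 has partial human copies, the NOTCH2NL genes, and reads from shared exons may be counted for either. The counts assigned to 4 such copies came to 1.38 to 2.51% of those of NOTCH2 in a library. With their counts added to NOTCH2, the log2 fold change was -0.67.

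NOTCH1, the receptor best known from T-cell development and leukaemia, stood at 25.4, 27.7 and 26.8 CPM in the control replicates. It stood at 15.3, 14.5 and 18.1 CPM in the miR-34a replicates. As for NOTCH2, replicate 3 was the highest of the miR-34a libraries and still lay well under the control. The level was 60.1% of the control (95% interval 52.4 to 68.9), or -0.73 on the log2 scale with an SE of 0.10 (edgeR adjusted p = 4.8e-06).

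NOTCH3, a receptor known mainly from vascular smooth muscle, stood at 48.0, 56.1 and 45.8 CPM in the control replicates. It stood at 30.3, 32.6 and 36.6 CPM in the miR-34a replicates. The groups were again apart, although control replicate 2 was well above the other control libraries. The level was 66.4% of the control (95% interval 58.6 to 75.3), or -0.59 on the log2 scale with an SE of 0.09 (edgeR adjusted p = 3.1e-05). It is the receptor with the 8mer, yet the intervals of the 3 receptors overlap one another.

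The make-up of the receptor pool was not shown to differ between the groups. Divided by exonic length, NOTCH2 made up 64.1 ± 2.86% (SD, n = 3) of the summed receptor level in the control and 63.4 ± 1.97% with miR-34a. NOTCH3 made up 24.2 ± 2.25% and 25.5 ± 1.91%, and NOTCH1 11.7 ± 0.972% and 11.1 ± 0.0642%. The differences were -0.73, 1.34 and -0.61 percentage points for NOTCH2, NOTCH3 and NOTCH1, and the groups overlapped for each. None of the 3 passed (exact two-sided permutation test, adjusted p = 0.9, 0.75 and 0.75 over the 3 receptors); 3 libraries against 3 cannot give a p below 0.1. The summed receptor level per kilobase was 22.0 ± 1.22 CPM per kb in the control and 13.9 ± 1.74 with miR-34a, 63.1% of the control, and the exact permutation p was 0.1.

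Among the ligands, DLL1, a Delta-like ligand that activates Notch on the neighbouring cell, stood at 7.97, 11.5 and 10.2 CPM in the control replicates. It stood at 6.32, 6.85 and 7.19 CPM in the miR-34a replicates. The gap between the groups was narrow, because control replicate 1 was low. The level was 68.6% of the control (95% interval 56.5 to 83.3), or -0.54 on the log2 scale with an SE of 0.14 (edgeR adjusted p = 0.0081). The call rested on control replicate 2: without it the log2 fold change was -0.42 and the adjusted p by edgeR was 0.090.

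JAG1, a Jagged ligand and the least abundant member, holds 7mer-m8 matches in its 3′ UTR and did not pass. It stood at 5.48, 5.46 and 5.41 CPM in the control replicates and at 3.85, 4.93 and 5.46 CPM in the miR-34a replicates. The control libraries were nearly equal, and the miR-34a libraries ran from well below them up to their level. The level with miR-34a was 87.8% of the control (95% interval 70.4 to 109.6), or -0.19 on the log2 scale with an SE of 0.155 (edgeR adjusted p = 0.51). JAG1 had 97 to 202 counts in a library, and the interval holds both no change and a fall close to that of DLL1. The log2 ratio of DLL1 to JAG1, compared after the values were seen, was 0.54, 1.07 and 0.91 in the control and 0.71, 0.47 and 0.40 with miR-34a. That is a difference of -0.31 with overlapping groups (exact two-sided permutation p = 0.2). With 3 libraries against 3 this p cannot go below 0.1, so the test cannot decide whether the ligands differed in their change.

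JAG2, the other Jagged ligand, and DLL3, a ligand known to act on Notch within its own cell, have no seed match in the 3′ UTR and did not pass either. JAG2 stood at 42.5, 51.8 and 43.5 CPM in the control and 37.6, 43.3 and 42.6 CPM with miR-34a. Its log2 fold change was -0.16 (95% interval -0.33 to 0.02), adjusted p = 0.26 by edgeR. DLL3 stood at 6.34, 8.17 and 7.99 CPM in the control and 5.36, 6.16 and 7.95 CPM with miR-34a, a log2 fold change of -0.20 (95% interval -0.51 to 0.11), adjusted p = 0.46 by edgeR. The groups overlapped for both. A same-strand gene shares 7.33% of the exonic length of JAG2 and had no count in any library; how reads from that stretch were counted is not known.

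**Figure D2:**
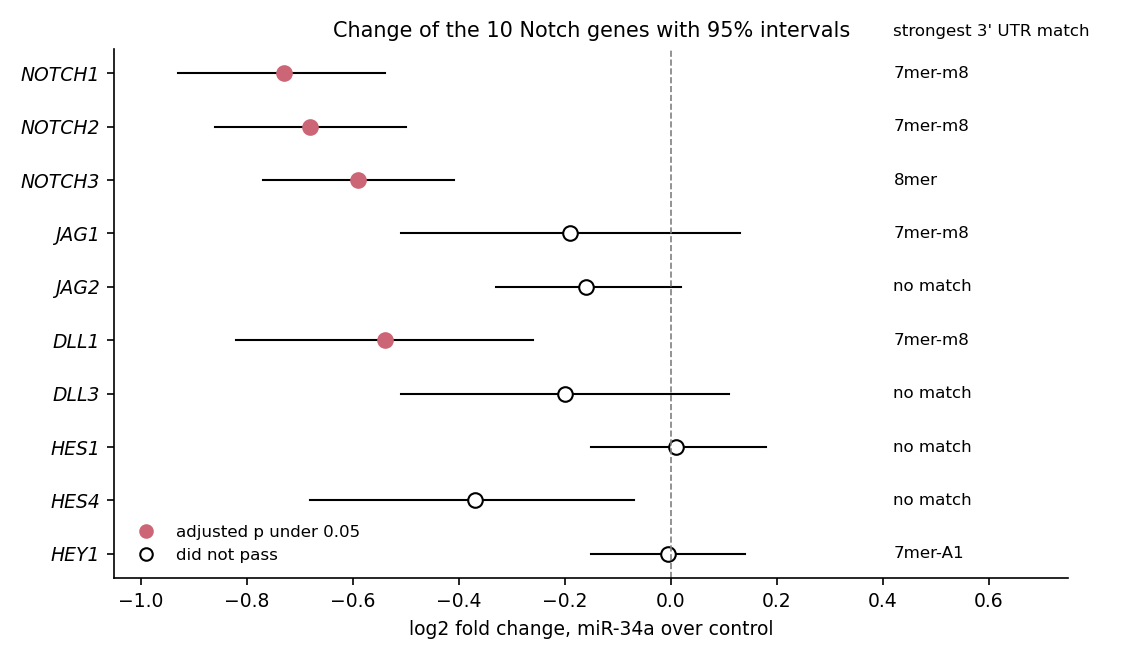
Log2 fold change (x axis, miR-34a over control) of the 10 Notch genes with 95% intervals from edgeR. Filled points passed an adjusted p of 0.05, and the right column names the strongest seed match in the 3′ UTR. The 3 receptors and DLL1 lie between -0.73 and -0.54. The intervals of JAG1, JAG2, DLL3, HES1 and HEY1 span 0, and that of HES4 lies below 0.

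HES1 and HEY1, repressors of the basic helix-loop-helix class that serve as standard readouts of Notch activity, did not differ detectably. HES1 stood at 27.8, 29.1 and 28.6 CPM in the control and 26.7, 30.5 and 29 CPM with miR-34a. The level was 101% of the control (95% interval 89.9 to 114), adjusted p = 0.94 by edgeR. HEY1, the member with the highest level per kilobase of exon, stood at 222, 224 and 244 CPM in the control and 242, 224 and 222 CPM with miR-34a. Its level was 99.7% of the control (95% interval 90.4 to 110.0), adjusted p = 0.98 by edgeR, although it holds a 7mer-A1 site. For both genes the interval excludes a change as large as that of NOTCH2 at its point estimate. The sign of the HEY1 value, -0.0044 on the log2 scale, turned with DESeq2 size factors (0.002) and with library size only (0.0091).

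HES4, a relative of HES1, was lower on average but varied widely within each group. It stood at 22.4, 40.0 and 39.0 CPM in the control replicates and at 21.0, 25.3 and 32.0 CPM in the miR-34a replicates. Control replicate 1 lay among the miR-34a libraries. The log2 fold change was -0.37 with an SE of 0.15 (edgeR adjusted p = 0.11). Without control replicate 1 it was -0.58 with an adjusted p of 6.5e-05, and without miR-34a replicate 3 it was -0.55 with an adjusted p of 0.0087, both by edgeR. The HES4 transcript has the highest GC content of the 10 members, 73.9%. Its log2 level in control replicate 1 was 0.82 below the mean of replicates 2 and 3 (-0.82), and the fifth of tested genes richest in GC had a median of -0.10 there. In the miR-34a group the corresponding values were -0.44 and 0.01. The part of base composition in the HES4 result was not tested.

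The binding word of RBPJ was present in the promoters of the HES genes. TGGGAA, searched on both strands in the 250 bases before to 50 after the RefSeq start site (GRCh38.p14), was found at -84 and -70 in HES1 and at -76 in HES4. At least 1 such word is present in 24% of 35116 promoters and at least 2 in 3.80%. It was not found in the same window of NOTCH1, NOTCH2, NOTCH3, JAG1 or JAG2; the table used has no entry for DLL1, DLL3 and HEY1. The stretches are shown with the word in capitals because HES genes commonly serve as readouts of the receptors. Whether HES1 and HES4 do so in these cells was not tested.
HES1 promoter: tactgTGGGAAagaaagttTGGGAAgtttc
HES4 promoter: gagtgTGGGAAagaatgcggagccgggttc
A match is a description of the letters and shows no binding in these cells.

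Levels between genes can be compared only per length. In the control, the level per kilobase of exon was 71.2 ± 3.88 CPM per kb (SD, n = 3) for HEY1, 30.2 ± 8.84 for HES4, 14.1 ± 1.17 for NOTCH2 and 13.8 ± 0.307 for HES1. It was 7.18 ± 0.797 for JAG2, 5.32 ± 0.575 for NOTCH3, 3.06 ± 0.547 for DLL1, 2.86 ± 0.385 for DLL3, 2.57 ± 0.116 for NOTCH1 and 0.586 ± 0.00397 for JAG1. NOTCH2 and HES1 overlapped, as did DLL1, DLL3 and NOTCH1, so their order is not resolved. For NOTCH2 and HES1 this depended on the length used. Per kilobase of the transcript with the longest coding sequence, NOTCH2 stood at 22.8, 20.3 and 19.4 CPM per kb in the control replicates. HES1 stood at 17.6, 18.4 and 18.1 on that scale, below NOTCH2 in every control library. HES4 stood at 21.5, 38.5 and 37.5 there and overlapped with NOTCH2, so the order of these genes also depended on the length. With miR-34a, NOTCH2 fell to 8.81 ± 1.29 CPM per kb and HES1 stood at 14 ± 0.93, so that HES1 lay above NOTCH2 in all 3 libraries.

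The members that fell were among those with a 7mer or 8mer in the 3′ UTR. Of the 6 members with such a match 4 fell, and JAG1 and HEY1 did not pass. The 4 members without one did not pass. Over all tested genes with a 3′ UTR of at least 50 nt, 19.4% of 2702 genes with a 7mer or 8mer fell and 4.89% of 8915 genes without any match fell. Of 474 genes with exactly 2 such sites, as in NOTCH1, 25.9% fell, and of 156 genes with 3 or more, as in DLL1, 26.9% fell.

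**Figure D3:**
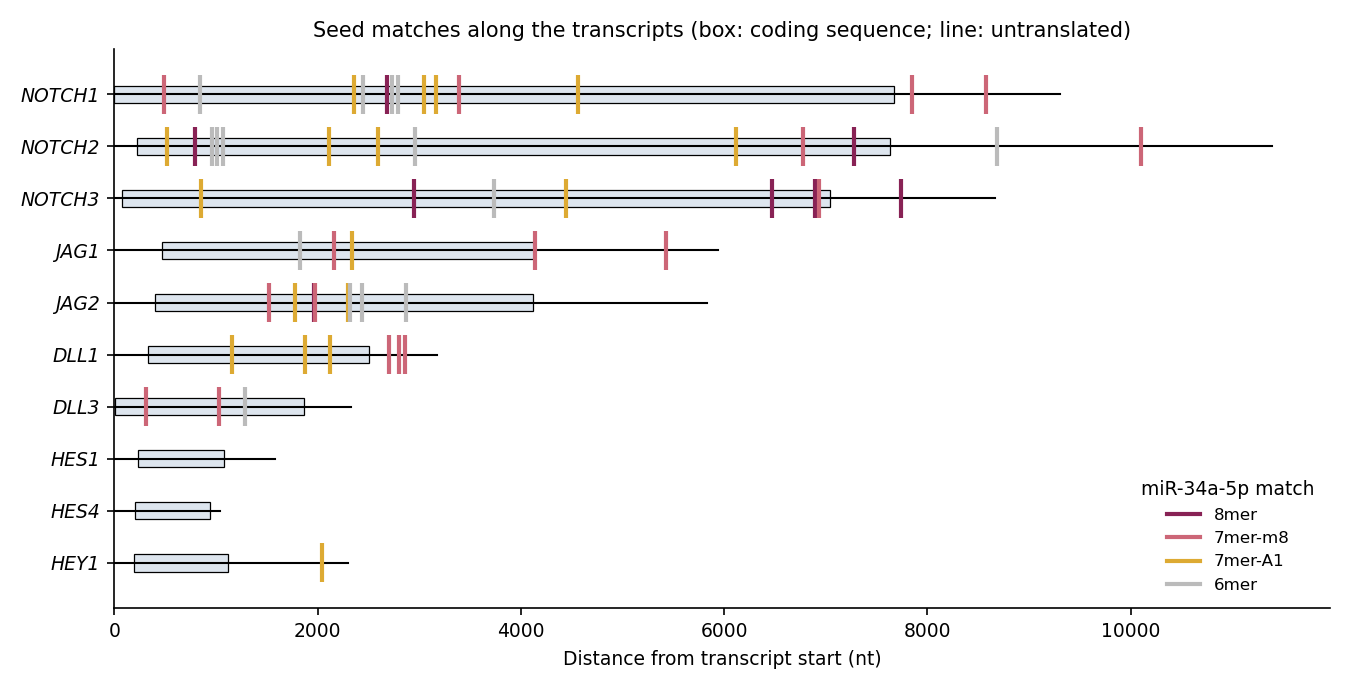
Matches to the miR-34a-5p seed along the transcript of each Notch gene, in nucleotides from its start (x axis); boxes are coding sequence, thin lines are untranslated sequence, and tick colours give the kind of match. The receptors and ligands carry 3 to 11 matches each in the coding sequence, and HES1 and HES4 carry none.

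The coding sequences of the receptors and ligands held the same letters. NOTCH1 and NOTCH2 each held 11 matches of at least 6 bases in the coding sequence, a number reached by 0.148% of 13473 tested coding genes. JAG2 held 8, NOTCH3 7, and JAG1, DLL1 and DLL3 3 each. These numbers grow with the length of the coding sequence, so the matches per kilobase are given too. A density as high as that of NOTCH1 was reached by 5.0% of the coding genes, and as high as those of NOTCH2, NOTCH3 and JAG1 by 4.53%, 11.2% and 15.8%. For JAG2, DLL3 and DLL1 the share was 1.51%, 3.67% and 5.55%. Together these 7 genes held 46 matches, or 1.38 per kilobase of coding sequence, against 0.354 over all tested coding genes, of which 59.5% held none. HES1, HES4 and HEY1 held none.

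Most of these matches shared a reading frame. In 40 of the 46, or 87.0%, the TGC within ACTGCC was a whole codon, which encodes cysteine. Over the 9157 coding matches of all tested genes that share was 38.4%. Cysteines brace each EGF-like repeat by disulphide bonds, but whether these matches lie in such repeats was not tested. Examples from NOTCH1 and from JAG2, which has matches only in its coding sequence, are shown with the match in capitals; the pair in JAG2 overlaps.
NOTCH1 exon 17: cacccacggcggctaccgctgcCACTGCCA
JAG2 exon 12, first match: cgaggacctggccgacggcttcCACTGCCA
JAG2 exon 12, second match: cctggccgacggcttccactgcCACTGCCc
The NOTCH1 8mer lies on chromosome 9 at 136510706 to 136510713, and the JAG2 matches on chromosome 14 at 105150638 to 105150645 and 105150633 to 105150639 (GRCh38, minus strand). Of the 8 coding matches of JAG2, 5 were of the 7mer or 8mer kind, and JAG2 did not pass. Among 33 tested genes with at least 5 such coding matches and no match in the 3′ UTR, 4 fell (12.1%) and 2 rose, and their median log2 fold change was -0.10.

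The other genes of the pathway were taken from 7 lists grouped by role, 69 genes in all, of which 63 were tested. Of these 10 fell and 3 rose, 15.9% and 4.76%, beside 6.7% and 5.38% of all tested genes, and the remaining 50 did not pass. Their median log2 fold change was -0.07. The lists were drawn up with earlier results of these data known. Of the 10 that fell, 6 had a 7mer or 8mer in the 3′ UTR. Over all tested genes with a 3′ UTR of at least 50 nt, 523 of the 1088 that fell had one.

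**Figure D4:**
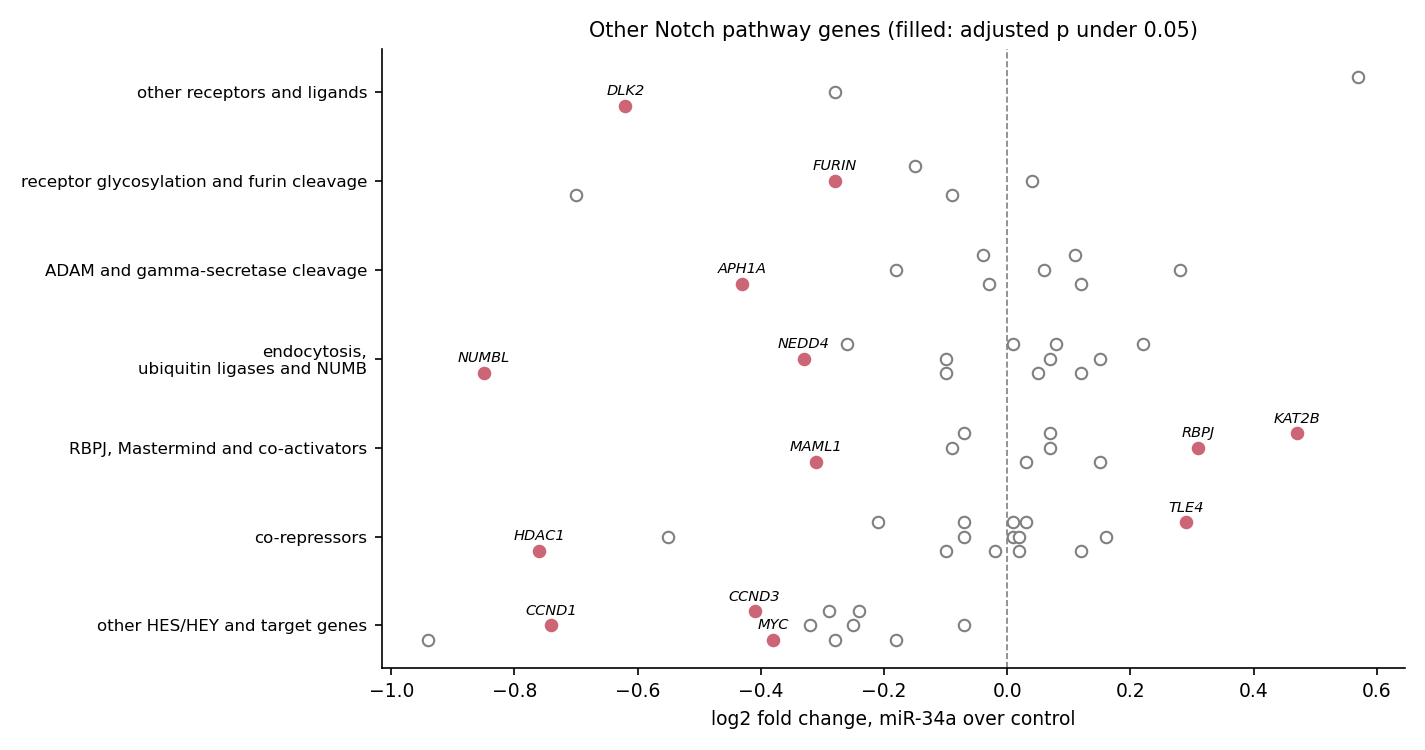
Log2 fold change (x axis, miR-34a over control) of 63 other genes of the Notch pathway, each point a gene, in rows by role. Filled, named points passed an adjusted p of 0.05 in edgeR. NUMBL, HDAC1 and CCND1 lie lowest of the named genes, at -0.85, -0.76 and -0.74, and KAT2B, RBPJ and TLE4 lie to the right of 0.

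Among the genes for nuclear proteins of the pathway, the mRNA of RBPJ rose and that of its co-activator MAML1 fell. RBPJ, the DNA-binding protein of the pathway, stood at 133, 126 and 119.7 CPM in the control and 146, 154 and 168 CPM with miR-34a, all above the control. Its log2 fold change was 0.31 with an SE of 0.07 (edgeR adjusted p = 0.0040). MAML1, a Mastermind protein, stood at 118, 111 and 115 CPM in the control and 94.8, 85.5 and 97.0 CPM with miR-34a, all below the control. Its log2 fold change was -0.31 with an SE of 0.07 (edgeR adjusted p = 0.0036, but 0.061 without miR-34a replicate 2). KAT2B, a histone acetyltransferase, rose from 28.8 ± 1.13 to 39.8 ± 1.58 CPM (SD, n = 3). The other 6 of the 9 genes of this list did not pass, with log2 fold changes from -0.09 to 0.15.

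Among 15 co-repressors, HDAC1, a deacetylase of several repressor complexes, fell from 423 ± 15.4 to 250.4 ± 12.6 CPM (SD, n = 3), and TLE4, a Groucho-type co-repressor, rose from 198 ± 0.357 to 242 ± 7.63 CPM. The other 13 did not pass.

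Among the genes that prepare, cut or clear the receptor, FURIN, APH1A, NUMBL and NEDD4 passed, each of them lower. FURIN, the protease that makes the first cut during receptor maturation, fell from 55.9 ± 4.17 to 45.9 ± 1.43 CPM (SD, n = 3), adjusted p = 0.013 by edgeR; the other 4 tested genes of its list did not pass. APH1A, a gamma-secretase subunit, stood at 169, 185 and 180.0 CPM in the control and 145, 124 and 126 CPM with miR-34a, adjusted p = 0.00014 by edgeR. It shares 14.1% of its exonic length with the weakly expressed C1orf54 on the opposite strand. The other 7 genes of ectodomain and gamma-secretase cleavage did not pass, among them the protease ADAM10, with a log2 fold change of -0.04.

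NUMBL, a relative of the Notch inhibitor NUMB, had the largest fall of the pathway genes that passed. It stood at 26.1, 32.5 and 31 CPM in the control and 17.8, 16.3 and 15.8 CPM with miR-34a. The change was -0.85 on the log2 scale with an SE of 0.10 (edgeR adjusted p = 4.5e-07), and its 3′ UTR holds an 8mer. NEDD4, a ubiquitin ligase, fell from 18.5 ± 0.923 to 14.8 ± 0.285 CPM (SD, n = 3), adjusted p = 0.021 by edgeR. The other 10 tested genes of endocytosis and ubiquitin transfer did not pass. DLK2, a non-canonical ligand, fell from 5.99 ± 1.05 to 3.90 ± 0.379 CPM, adjusted p = 0.011 by edgeR; it shares 3.53% of its exonic length with ABCC10 on the opposite strand, which is more abundant. The calls of FURIN, NEDD4 and DLK2 rested on single libraries. Without control replicate 2 the edgeR adjusted p was 0.077 for FURIN, 0.098 for NEDD4 and 0.11 for DLK2. FURIN was also lost without miR-34a replicate 3 (0.055), DLK2 without miR-34a replicate 2 (0.063), and NEDD4 without control replicate 3 (0.055) and miR-34a replicates 2 (0.090) and 3 (0.050).

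Among 11 tested genes of the list of other HES and HEY genes and further targets, CCND1, CCND3 and MYC fell and the other 8 did not pass. CCND1, the G1 cyclin D1, stood at 17.8, 17.9 and 17.5 CPM in the control and 10.1, 9.45 and 12.2 CPM with miR-34a. The change was -0.74 on the log2 scale with an SE of 0.11 (edgeR adjusted p = 2.6e-05). CCND3, another D-type cyclin, fell from 56.3 ± 1.88 to 42.5 ± 1.67 CPM and the transcription factor MYC from 138 ± 5.22 to 106 ± 2.25 CPM (SD, n = 3). These 3 genes also answer to many other pathways. CCND1 and CCND3 hold a 7mer-A1 in the 3′ UTR, and 10.3% of the exonic length of CCND1 is shared with LTO1 on the opposite strand, at 27.7 to 31 CPM, so its value is uncertain. All 11 log2 fold changes of this list were below 0, beside 50.7% of all tested genes, and those that did not pass ran from -0.94 to -0.07. The value of -0.94 is that of HES7, at mean levels of 0.933 CPM in the control and 0.477 CPM with miR-34a. HES2 and HES5 were below 1 CPM in every library. HES2, HES6, HEYL and SOX9 also hold a 7mer-m8 in the 3′ UTR. Over all tested genes with a 3′ UTR of at least 50 nt, 20.9% hold a 7mer or 8mer.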

How the data were processed

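The authors deposited whole-number counts of reads for each Ensembl gene in each library, not normalized, per the file headers and values. The submitters' processing notes list GRCh38 and the tools featureCounts, STAR (2.7.11a), Subread (2.0.3) and edgeR (3.42.4). Not given in the sources used here are the annotation release, the strand setting and how multiply mapped reads were treated. The library kit named in the labels does not mark strand, so reads of opposite-strand genes that overlap cannot be told apart.

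Genes were kept with filterByExpr (minimum count 10, minimum total 15), scaled by TMM and tested by quasi-likelihood in edgeR (4.0.16, on R 4.3.3) with a term for group alone. CPM uses the TMM-scaled library size. P-values were adjusted over all 17427 tested genes; intervals are 95%. On simulated counts (17417 genes tested) the test recovered 94% of genes changed 1.5-fold and 100% of those changed 2-fold, with 6.73% false calls. The simulation gave every gene the same dispersion and changed 100 genes per fold, none of them at very low levels. It therefore does not give the recovery for weakly expressed genes or for genes that vary more between libraries. Alternatives used other scalings, filters, DESeq2 1.42.0, limma-voom (limma 3.58.1), a replicate block and leaving out each library.

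Symbols came from the gene name table; GENCODE 29 (GRCh38) gave exons and transcripts. The members and lists were chosen with earlier results of these data known. Named pathway genes were all those past the threshold, at most 3 in a list, plus RBPJ, MAML1 and ADAM10, and the 3 genes nearest NOTCH1 in profile. A gene taken by this rule and a sequence are left out here. The comparison of DLL1 with JAG1 was added after the values were seen.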

Additional observations from a re-analysis of the deposited data

How the results depend on the processing

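NOTCH1, NOTCH2 and NOTCH3 kept their direction and their call under every alternative run; without single libraries their log2 fold changes ranged from -0.84 to -0.66, -0.80 to -0.58 and -0.67 to -0.50. DLL1 ranged from -0.66 to -0.42 and lost its call without control replicate 2. HES4 ranged from -0.58 to -0.24 and passed with no filter (-0.36, adjusted p = 0.0016 by edgeR), without control replicate 1 and without miR-34a replicate 3. The number of members that fell ranged from 3 to 5 without single libraries. The log2 fold changes of HES1 (-0.027 to 0.06) and HEY1 (-0.044 to 0.043) crossed 0 without single libraries, and that of HEY1 was 0.002 with DESeq2 size factors, 0.0091 with library size only, 0.0071 with no filter and 0.0019 in DESeq2. Over all genes, 727 to 1394 fell and 525 to 1287 rose without single libraries, the fewest falls without miR-34a replicate 2 and the fewest rises without control replicate 2; 606 rose without control replicate 3 and 604 without miR-34a replicate 2. Over the same fits the counts that fell ranged from 0 to 1 among other receptors and ligands, 0 to 1 in glycosylation and furin cleavage, 1 to 2 in endocytosis (where 0 to 1 rose), 0 to 1 among RBPJ and co-activators and 1 to 2 among co-repressors. The shares of NOTCH1, NOTCH2 and NOTCH3 differed by -1.14 to -0.19, -2.08 to 0.76 and 0.24 to 2.58 points. The cause of these shifts was not tested.

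Replicate numbers were shared between the groups. Over all tested genes, the deviations of same-numbered libraries from their group means were nearly uncorrelated (-0.025, 0.022 and -0.076). These correlations cannot decide whether the libraries were paired. Replicate 1 was below the mean of replicates 2 and 3 in both groups for all members except NOTCH2, JAG1 and HEY1. For HES4 the log2 values were -0.82 in the control and -0.44 with miR-34a. With a replicate block, 1023 genes fell and 807 rose, 2 co-repressors fell and HES4 passed at -0.35 (adjusted p = 0.0089 by edgeR). JAG1, DLL1 and DLL3, the members with the fewest counts, have the widest intervals together with HES4.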

Other observations

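The genes whose profile over the 6 libraries lay nearest to that of NOTCH1 were sought among 10281 tested genes outside the 10 members whose mean log2 CPM reached 3, by the mean absolute difference of log2 CPM, each gene centred on its control mean. The nearest was CCND1 (0.0348), followed by RAP1GAP (0.0432), a GTPase-activating protein for Rap, and SLC45A3 (0.0545), a membrane transporter. RAP1GAP fell from 10.4 ± 0.467 to 6.22 ± 0.42 CPM (SD, n = 3) and SLC45A3 from 10.2 ± 0.312 to 5.90 ± 0.576 CPM. Each of the 3 genes holds 1 site of the 7mer kind in the 3′ UTR. Over all tested genes with a 3′ UTR of at least 50 nt, 358 of the 1088 that fell hold exactly 1 7mer or 8mer. Among the members, NOTCH2 (0.0968), NOTCH3 (0.119) and DLL1 (0.183) lay nearer to NOTCH1 than JAG1 (0.292), DLL3 (0.316), JAG2 (0.334), HES4 (0.356), HES1 (0.389) and HEY1 (0.401). With 2 groups of 3 libraries, this measure mostly ranks genes by the size of their fall.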
